A study of Homo sapiens with 16 samples.

Results

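The 10 keratin genes described here are KRT7, KRT8, KRT18, KRT19, KRT80, KRT81, KRT4, KRT13, KRT20 and KRT23, out of 42665 gene names on a human expression microarray. Every non-control probe annotated to a member was taken, which gave 14 probes of 58201. The cells were 16HBE, a human bronchial epithelial line immortalised with SV40 large T antigen, and every group therefore carried that antigen. 16HBE-WT cells had unedited MET, the receptor tyrosine kinase for hepatocyte growth factor (HGF). 16HBE-ex14 cells were a single CRISPR/Cas9 clone in which the exon 14 splice donor region of MET was targeted so that exon 14 is skipped. Each was starved of serum for 2 h and then left untreated or given HGF at 20 ng/mL for 24 h, which gave 4 groups of 4 arrays each, named 16HBE-WT and 16HBE-ex14 for the untreated cells and 16HBE-WT+HGF and 16HBE-ex14+HGF for the treated cells. Because the edited cells are 1 clone, the effect of the edit and the properties of that clone cannot be told apart.

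Keratins are the intermediate filament proteins of epithelia, and a filament forms only when a type I keratin pairs with a type II keratin. KRT8 (type II) and KRT18 (type I) are the basic pair of simple, single-layered epithelium. KRT7 (type II) and KRT19 (type I) accompany them in ductal, glandular and airway epithelium, and KRT20 and KRT23 are type I keratins best known from the gut and other glandular epithelia. KRT80 is a type II keratin found in many epithelia. The group name of simple epithelial keratins does not cover all members, since KRT4 and KRT13 are the type II and type I pair of stratified mucosa such as the oesophagus, and KRT81 is a type II keratin first known from hair. Of the 10 genes, 5 are type I and 5 are type II, with 6 on chromosome 12 and 4 on chromosome 17. KRT18 is the only type I member on chromosome 12, where it lies next to KRT8, and the spans of these genes overlap by 1006 bases in the RefSeq annotation of GRCh38.p14.

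KRT8 and KRT18 are the tested members with more than 1 probe. Shown here are both KRT18 probes and the 2 dimmer KRT8 probes, against which the result of the brightest KRT8 probe (A_23_P14072, whose sequence is not shown) is compared. The sequences are those in the array files, written 5′ to 3′ with positions in hg19. The first KRT8 probe shown matches the protein-coding transcript NM_002273 (chr12:53294461-53294995, minus strand) and the second the non-coding KRT8 transcript NR_045962 (chr12:53343241-53343300, minus strand). The KRT18 probes both match NM_000224 on the plus strand (chr12:53346116-53346554 and chr12:53345577-53345636).
KRT8 A_24_P67395: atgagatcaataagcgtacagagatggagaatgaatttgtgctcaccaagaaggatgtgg
KRT8 A_33_P3372368: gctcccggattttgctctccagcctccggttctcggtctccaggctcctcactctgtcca
KRT18 A_32_P151544: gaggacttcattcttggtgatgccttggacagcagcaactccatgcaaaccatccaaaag
KRT18 A_24_P42136: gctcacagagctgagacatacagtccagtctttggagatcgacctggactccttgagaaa
The KRT8 probe A_24_P67395 and the KRT18 probe A_32_P151544 each cover a genomic span longer than their 60 bases and so cross at least 1 intron. The NR_045962 probe lies 48246 bases from A_24_P67395 and 2277 bases from the nearer KRT18 probe, on the strand opposite KRT18. It falls in the stretch where the KRT8 and KRT18 spans overlap, and so within the KRT18 span. Which KRT8 transcripts it reads, and whether KRT18 RNA adds to its signal, was not tested. No probe of another gene on the array shared a run of more than 16 bases with any member probe, on either strand. Probes were compared only with other probes and not with transcripts, so this does not show which RNAs bind them.

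The values are log2 spot intensities minus the 75th percentile of all non-control spots on the same array, so 0 is the level of a fairly bright spot and a difference of 1 is 2-fold. The share of probes that the scanner software marked as well above background ran from 49% to 60.3% over the arrays, and that percentile lay between 139.5 and 262.8 intensity units. Its log2 value averaged 7.817 over the 8 arrays of the edited clone and 7.438 over the 8 of unedited cells, a difference of 0.3791 (two-sided exact permutation test, p = 0.000622). Relative to the E1A spike-in probes the same difference was 0.1374 (exact permutation p = 0.0196), so the scaling bears on every comparison between genotypes. limma was run on the probes with such a mark on 4 or more of the 16 arrays, and a gene was represented by its brightest tested probe. A gene was called when its Benjamini-Hochberg adjusted p was below 0.05 and its difference exceeded 1.5-fold (0.585 on the log2 scale). Of the members, 8 genes with 11 probes were tested among 26368 genes. Levels of different probes are not comparable, since each probe binds with its own efficiency, and the text therefore compares a probe only with itself, except in sums over marker lists, in which the brightest probes weigh most. In RNA from whole cultures, fewer cells that express a gene and less RNA per cell cannot be told apart.

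The array's MET probe (chr7:116438290-116438349), which was not placed against exon 14 here and so does not check the edit, was well above background on 16 of 16 arrays, with group means of 4.97 without and 5.0 with HGF in 16HBE-WT, and of 5.1 and 5.16 in 16HBE-ex14. All 9 epithelial markers examined were well above background on all 16 arrays. Of 7 fibroblast markers, 3 were tested and 4 were well above background on no array. Among the 3 tested, 2 were well above background on all 16 arrays. So were all 3 tested leukocyte markers and all 3 tested alveolar markers. This mark alone therefore does not tell cell types apart here.

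KRT7, KRT8, KRT18, KRT19, KRT80 and KRT81 were well above background on all 16 arrays, whereas KRT20 and KRT23 were not measurable. The KRT20 probe was well above background on 0 of 16 arrays, with linear intensities between 1.7 and 7.98. Each of the 2 KRT23 probes was well above background on 1 array, which belonged to 16HBE-ex14+HGF for one probe and to 16HBE-WT+HGF for the other. KRT4 and KRT13 were dim, with intensities between 12.1 and 26.2 for KRT4 and between 8.84 and 33.5 for KRT13. KRT4 was well above background on 16 arrays and KRT13 on 14, the missing arrays both being 16HBE-WT+HGF.

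**Figure D1:**
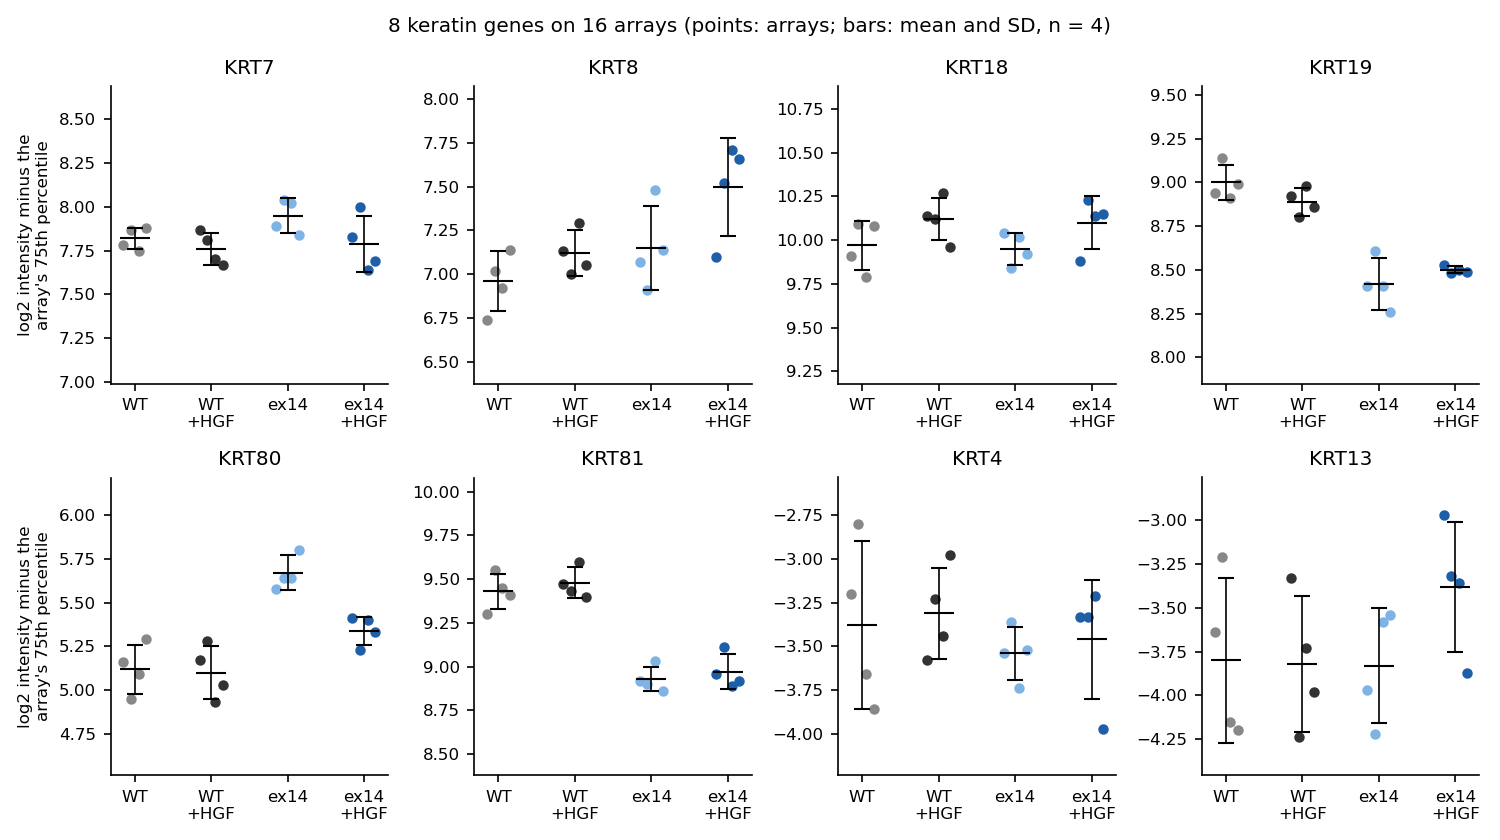
Log2 intensity minus the array's 75th percentile (vertical axes, all of equal height in log2 units) for the brightest probe of each of the 8 tested keratin genes in the 4 groups; points are arrays and bars give the mean and SD (n = 4). KRT19 and KRT81 sit lower on every 16HBE-ex14 array than on every 16HBE-WT array, KRT80 is highest in untreated 16HBE-ex14, and KRT4 and KRT13 scatter widely.

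The first comparison asked how the keratins differed between 16HBE-ex14 and 16HBE-WT cells without HGF. KRT19 and KRT81 were lower and KRT80 was higher in 16HBE-ex14 cells, each by slightly less than 1.5-fold. With both limits, 0 of 8 tested member genes were called, against 9.25% of all genes tested. By adjusted p alone, the count was 3 of 8, against 18.2% of all genes. The remaining 5 genes did not pass, and the median difference over the 8 genes was -0.02, against -0.01 over all genes.

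KRT19, the smallest keratin and a type I partner of KRT7 and KRT8, was read by a probe at chr17:39679918-39679977 on the minus strand. Its values in 16HBE-WT were 8.94, 9.14, 8.91 and 8.99. In 16HBE-ex14 they were 8.41, 8.61, 8.41 and 8.26. The highest 16HBE-ex14 array was below the lowest 16HBE-WT array, and the difference was -0.58 (SE 0.09, 95% interval -0.76 to -0.39, limma adjusted p = 0.000426), a 1.49-fold lower level. KRT19 lay just short of the fold limit and passed it without 16HBE-WT array 1 (-0.59), without 16HBE-WT array 3 (-0.60) or without 16HBE-ex14 array 2 (-0.64), which made 1 of 8 members called. The difference was -0.53 on slide 1 and -0.62 on slide 2, where the adjusted p values were 0.0837 and 0.0704 with 2 arrays per group.

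KRT81 was read by a probe at chr12:52679697-52679756 on the minus strand. Its values were 9.30, 9.55, 9.45 and 9.41 in 16HBE-WT. They were 8.92, 8.90, 9.03 and 8.86 in 16HBE-ex14. The groups did not overlap, and the difference was -0.50 (SE 0.08, 95% interval -0.68 to -0.32, limma adjusted p = 0.000895). Within slides it was -0.51 and -0.48, with adjusted p values of 0.0820 and 0.131.

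KRT80 was the member that differed the other way, with a probe at chr12:52563485-52563544 on the minus strand. Its values were 5.16, 4.95, 5.09 and 5.29 in 16HBE-WT. They were 5.58, 5.64, 5.64 and 5.80 in 16HBE-ex14. All 16HBE-ex14 arrays were above all 16HBE-WT arrays, and the difference was 0.54 (SE 0.10, 95% interval 0.33 to 0.76, limma adjusted p = 0.00159). Within slides it was 0.55 and 0.53, with adjusted p values of 0.0726 and 0.112. Without 16HBE-WT array 4 it was 0.60 and KRT80 passed the fold limit.

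These 3 differences depend in size on the scaling. Scaled to the array median, KRT19 was -0.44, KRT81 -0.36 and KRT80 0.68, and all kept an adjusted p below 0.05. Scaled to the E1A spike-in probes, RNA spiked into each labelling reaction, they were -0.40, -0.32 and 0.72, again with adjusted p below 0.05. With no scaling between arrays, KRT19 was -0.20 (adjusted p = 0.324) and KRT81 -0.13 (adjusted p = 0.536), while KRT80 was 0.92 (adjusted p = 0.00221).

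The basic pair KRT8 and KRT18, and KRT7, did not pass the test between untreated genotypes. KRT8 differed by 0.19 (95% interval -0.13 to 0.52) and KRT18 by -0.01 (-0.24 to 0.21), and KRT7 by 0.13 (-0.07 to 0.33). These intervals lie within 1.5-fold in either direction. With no scaling between arrays all 3 passed by adjusted p, with KRT8 at 0.57 (adjusted p = 0.0212), KRT18 at 0.36 (0.0332) and KRT7 at 0.50 (0.0311), and KRT8 also passed with spike-in scaling (0.37, adjusted p = 0.0468). For the dim mucosal pair, KRT4 differed by -0.16 (-0.63 to 0.32) and KRT13 by -0.03 (-0.58 to 0.53), so a decrease of KRT4 slightly beyond 1.5-fold is not excluded by its interval.

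The second comparison set 16HBE-ex14 against 16HBE-WT when both had received HGF. KRT19 and KRT81 were again lower in 16HBE-ex14, while KRT80 no longer passed the test. With both limits 0 of 8 member genes were called, against 10.7% of all genes, and by adjusted p alone 2 of 8 passed, against 20.6%. This comparison uses other arrays than the comparison without HGF, but the 4 groups share 1 estimate of the spread.

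KRT19 values were 8.92, 8.80, 8.98 and 8.86 in 16HBE-WT+HGF. They were 8.53, 8.48, 8.50 and 8.49 in 16HBE-ex14+HGF, the narrowest spread of KRT19 in any group (SD 0.02). The groups did not overlap, and the difference was -0.39 (SE 0.09, limma adjusted p = 0.00562). It was -0.35 and -0.42 within the slides, with adjusted p values of 0.182 and 0.126. It lost the adjusted p limit when scaled to the array median (-0.29, adjusted p = 0.139) or to the spike-in probes (-0.29, adjusted p = 0.0969), and was 0.00 with no scaling.

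KRT81 values were 9.47, 9.43, 9.60 and 9.40 in 16HBE-WT+HGF. They were 8.96, 9.11, 8.89 and 8.92 in 16HBE-ex14+HGF. The groups did not overlap, and the difference was -0.51 (SE 0.08, limma adjusted p = 0.000651), a 1.42-fold lower level. Within slides it was -0.42 and -0.60, with adjusted p values of 0.119 and 0.0715, and it was -0.12 (adjusted p = 0.546) with no scaling.

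KRT80 values were 5.17, 5.28, 4.93 and 5.03 in 16HBE-WT+HGF. They were 5.41, 5.23, 5.40 and 5.33 in 16HBE-ex14+HGF. The groups overlapped at 1 16HBE-ex14+HGF array, and the difference of 0.24 (SE 0.10) did not pass (limma adjusted p = 0.113), although it did after normexp background correction (0.32, adjusted p = 0.0190) and with no scaling between arrays (0.63, adjusted p = 0.0165).

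KRT8 had the largest upward difference of the 6 bright members with HGF present. The values of its brightest probe (chr12:53291026-53291085, minus strand) were 7.13, 7.0, 7.29 and 7.05 in 16HBE-WT+HGF. They were 7.10, 7.52, 7.71 and 7.66 in 16HBE-ex14+HGF. The groups overlapped, since 1 16HBE-ex14+HGF array lay among the values of 16HBE-WT+HGF, and the difference of 0.38 (SE 0.15, 95% interval 0.06 to 0.70) did not pass (limma adjusted p = 0.0931). With slide as a block the adjusted p was 0.0340, and with slide and array row as a replicate block it was 0.0477, with the same difference of 0.38. It also passed with normexp (0.48, adjusted p = 0.0258), array weights (0.45, 0.0278), the trended and robust prior (0.38, 0.0485), spike-in scaling (0.48, 0.0127), quantile normalization with a slide block (0.35, 0.0100) and no scaling (0.77, 0.00352), the last beyond 1.5-fold. It was 0.51 (adjusted p = 0.0196) without 16HBE-ex14+HGF array 1. The KRT8 probe A_24_P67395 gave 0.27 (adjusted p = 0.351). The NR_045962 probe, which lies within the KRT18 span, gave 0.22 (adjusted p = 0.236).

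The other 4 tested members did not pass with HGF, and the values of the groups overlapped for each. KRT13, a dim probe, differed by 0.44 (95% interval -0.12 to 1.00, limma adjusted p = 0.275), reaching 0.83 (adjusted p = 0.0313) with no scaling between arrays. KRT4, also dim, differed by -0.15 (-0.63 to 0.32, adjusted p = 0.702), with an adjusted p of 0.0320 after normexp. KRT7 differed by 0.03 (-0.17 to 0.23) and KRT18 by -0.02 (-0.25 to 0.20), the latter passing with the opposite sign with no scaling (0.36, adjusted p = 0.0282) and with quantile normalization and a slide block (0.20, 0.0286).

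**Figure D2:**
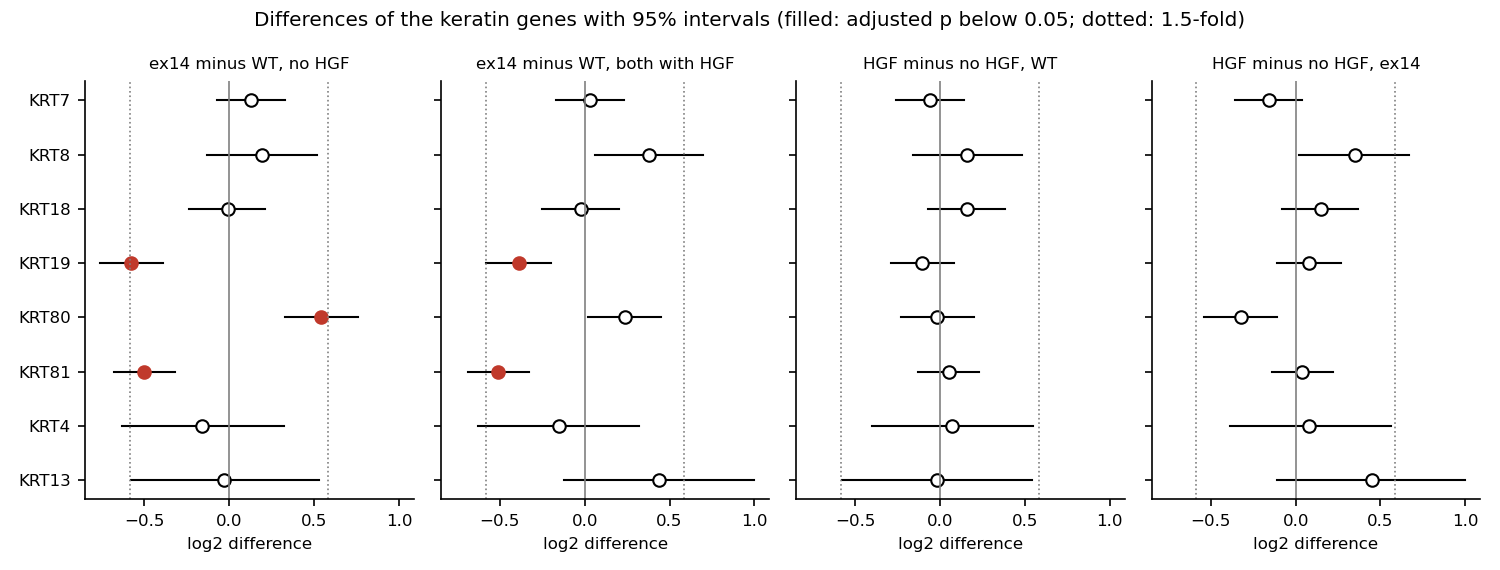
Log2 differences (horizontal axes) with 95% intervals for the 8 tested keratin genes in 4 comparisons; filled points have an adjusted p below 0.05 and dotted lines mark a 1.5-fold change. KRT19, KRT80 and KRT81 are filled without HGF, KRT19 and KRT81 with HGF, and none is filled for the response to HGF in either genotype.

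The next comparisons asked how the keratins responded to 24 h of HGF in each genotype. In 16HBE-WT, 0 of 8 member genes were called with both limits and 0 by adjusted p alone, against 0% and 0% of all genes by limma, the sole tool used for these tests. At an unadjusted p below 0.05 the counts were 0 of the 8 members and 1243 of the 26368 genes. The members' differences ranged from -0.11 for KRT19 to 0.16 for KRT8 and KRT18, and the values of the groups overlapped for each tested member. The interval for KRT18 was -0.07 to 0.38, that for KRT19 -0.29 to 0.08, and that for KRT8 -0.16 to 0.48.

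In 16HBE-ex14, 0 of 8 member genes were called with both limits, against 2.11% of all genes, and 0 by adjusted p alone, against 3.06%. At an unadjusted p below 0.05 there were 2 of the 8 members, KRT80 and KRT8, and 3775 of the 26368 genes. Among the members tested, 6 were higher and 2 lower with HGF, and their median difference was 0.08, against 0.06 over all genes.

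KRT80 was lower on every 16HBE-ex14+HGF array (5.23 to 5.41) than on every untreated 16HBE-ex14 array (5.58 to 5.80). The difference was -0.32 (SE 0.10, 95% interval -0.54 to -0.11), with an unadjusted limma p of 0.00585 and an adjusted p of 0.116. It was -0.29 on slide 1 and -0.36 on slide 2.

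KRT8 values were 7.07, 6.91, 7.48 and 7.14 in untreated 16HBE-ex14, and those with HGF are given above. The groups overlapped, and the difference was 0.35 (SE 0.15, limma adjusted p = 0.304). The other 2 KRT8 probes each gave 0.27, with adjusted p values of 0.347 (NR_045962, within the KRT18 span) and 0.560 (A_24_P67395). KRT18, its type I partner, differed by 0.15 (95% interval -0.08 to 0.37) with the brightest probe and by 0.23 (-0.03 to 0.48) with the other probe.

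KRT19 and KRT81 differed by 0.08 (95% interval -0.11 to 0.27) and 0.04 (-0.14 to 0.22) with HGF in 16HBE-ex14, and KRT7 by -0.16 (-0.36 to 0.04). KRT13 had the largest difference, 0.45, but its interval ran from -0.11 to 1.00 and its adjusted p was 0.483. KRT4 differed by 0.08 (-0.39 to 0.56).

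The response to HGF was then compared between genotypes directly. For this interaction 0 of 8 member genes were called with both limits and 0 by adjusted p alone, against 0% and 0% of all genes by limma. At an unadjusted p below 0.05 there were 1 member and 1214 genes. That member was KRT80, for which the response in 16HBE-ex14 minus that in 16HBE-WT was -0.31 (SE 0.14, unadjusted p = 0.0479, adjusted p = 1). The corresponding values were 0.19 for KRT19 (95% interval -0.08 to 0.45), 0.18 for KRT8 (-0.27 to 0.64) and -0.01 for KRT81 (-0.27 to 0.24). The largest was that of the dim KRT13 probe, 0.47 (-0.32 to 1.26), which did not pass.

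**Figure D3:**
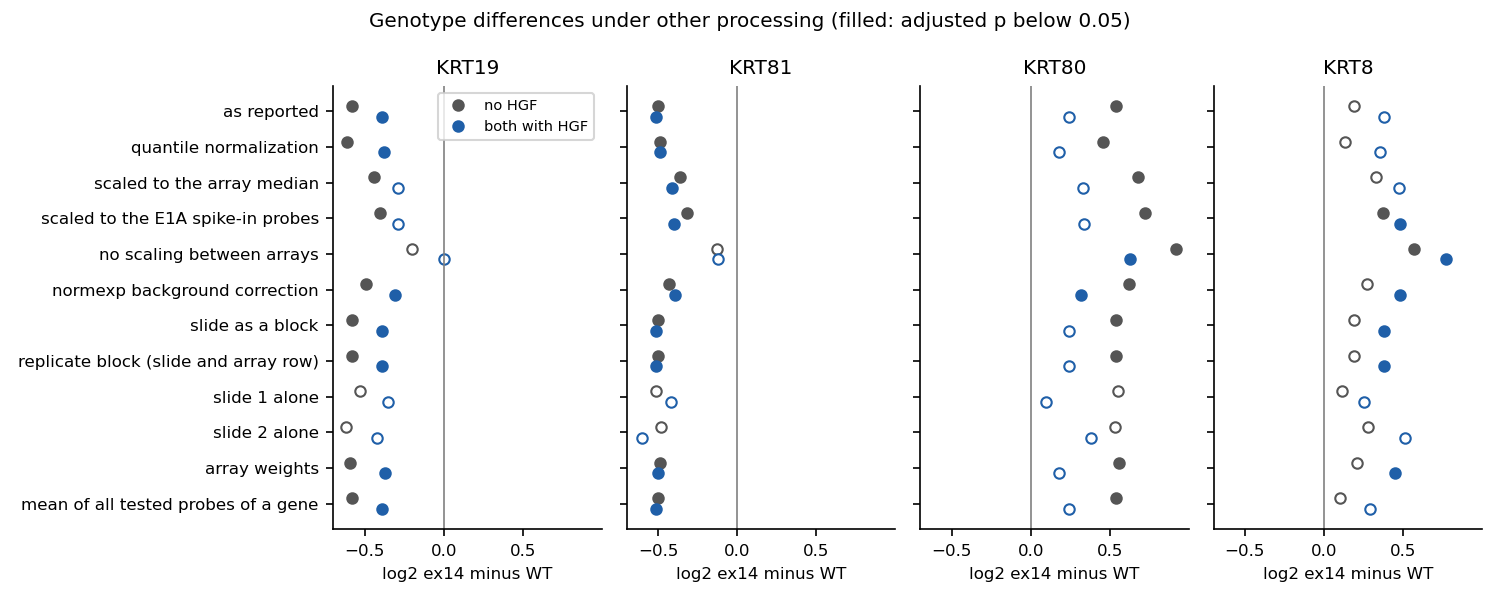
Log2 difference of 16HBE-ex14 minus 16HBE-WT (horizontal axes) without HGF (grey) and with HGF (blue) for 4 keratin genes under the reported processing and 11 alternatives; filled points have an adjusted p below 0.05. KRT19 and KRT81 are at or below 0 in each setting shown and approach 0 without scaling, and each value of KRT80 and KRT8 is above 0.

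Across the 16 arrays, the members fell into a few patterns, given here as a description over arrays that share 4 groups. KRT19 and KRT81 moved together (Pearson r = 0.92) and both ran opposite to KRT80 (r = -0.84 and -0.85). KRT8 and KRT18, which pair in filaments, had r = 0.62, while KRT8 and KRT7, both type II, had r = -0.14. KRT4 and KRT13 had r = 0.31.

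The genes most like each member were sought among 26335 others over the 16 arrays, by Pearson r. For KRT19 the nearest was KRT19P2, a KRT19 pseudogene (r = 0.984), whose probe was well above background on 16 arrays and differed by -0.77 without HGF and -0.63 with HGF between genotypes. Which transcripts bind the KRT19P2 probe was not tested. For KRT81 the nearest were CYB5R4 (r = 0.979) and CPNE1 (r = 0.974), and for KRT80 RAB15 (r = 0.96) and EIF3A (r = 0.959). KRT8 was nearest to SRPRB (r = 0.975) and TXNL4A (r = 0.969), and KRT18 to RPLP1 (r = 0.94) and SMIM4 (r = 0.928). The highest r was lower for KRT7 (0.832, ENST00000494933), KRT4 (0.838, SDK2) and KRT13 (0.799, CLMP).

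Among the other keratins, 30 of 47 genes were tested. Without HGF, 1 was called higher and 9 lower in 16HBE-ex14, against 9.25% of all genes in either direction, and the median was -0.40. The largest decreases were in KRT5 (-2.57), KRT222 (-1.99) and KRT14 (-1.74), followed by KRT6A (-1.62) and KRT17 (-1.61). KRT5 and KRT14 are the basal keratin pair of stratified epithelium, and KRT6A and KRT17 are induced in wounded or stressed epithelium. KRT6B was the gene called higher, but its probe was well above background on no 16HBE-WT array and on 2 of 4 16HBE-ex14 arrays, so no fold is given.

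With HGF in both genotypes, 2 other keratins were called higher and 9 lower, against 10.7% of all genes, and KRT5 differed by -4.26. For HGF in 16HBE-ex14, 1 was called higher (KRT6B, whose probe was well above background on 2 of 4 untreated arrays, so that no fold is given) and 4 lower, against 2.11% of all genes, the lower being KRT5 (-2.32), KRT42P (-1.11), KRT17 (-1.08) and KRT14 (-0.97). For HGF in 16HBE-WT and for the interaction none was called higher or lower. The differences of the 8 tested members lay between -0.58 and 0.54 in all 5 comparisons.

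KRT83 and KRT86 are hair-type keratins closely related to KRT81 in sequence. KRT83 was called lower in 16HBE-ex14 without HGF (-0.72, SE 0.07) and with HGF (-0.66, SE 0.07), and KRT86 differed by 0.11 (SE 0.12) and -0.01 (SE 0.12). How much labelled RNA of one of these genes binds the probe of another was not tested.

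**Figure D4:**
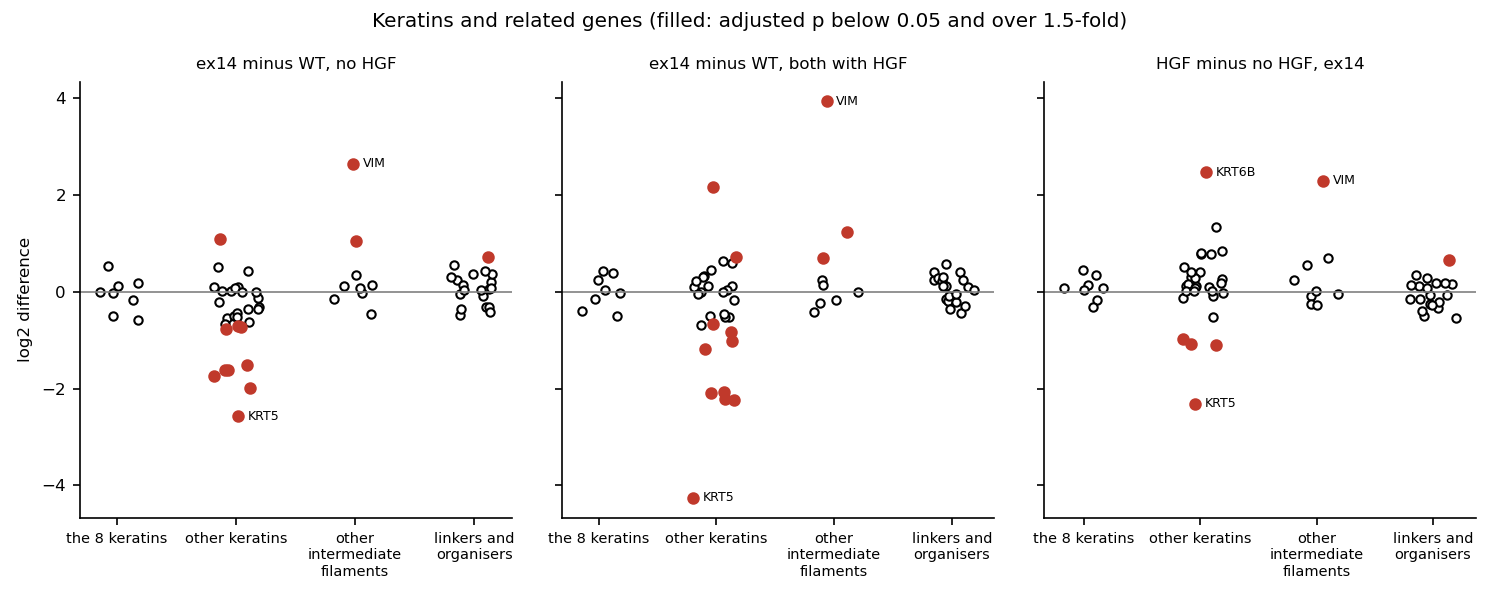
Log2 differences (vertical axis) in 3 comparisons for the 8 tested keratins, 30 other keratins and 9 other intermediate filament genes. The last set is 20 filament linkers, organisers and keratinocyte-associated genes. Each point is a gene, spread sideways at random, and filled points were called. The 8 keratins lie within -0.58 and 0.54, whereas KRT5 reaches -4.26 and VIM 3.94 when both genotypes had HGF.

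Of 9 tested intermediate filament genes other than keratins, 2 were called higher without HGF, 3 higher with HGF, and 1 higher in response to HGF in 16HBE-ex14, against 9.25%, 10.7% and 2.11% of all genes. VIM, the vimentin gene of mesenchymal and migrating cells, was called in each of these, with differences of 2.65, 3.94 and 2.30. PRPH (peripherin) was called without and with HGF (1.05 and 1.23), and INA (internexin) with HGF (0.69).

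A further list of 20 tested genes held mostly genes whose products anchor or organise keratin filaments, along with keratinocyte-associated proteins. Of these, 1 was called without HGF (PPL, periplakin, 0.73), against 9.25% of all genes, and 0 with HGF, against 10.7%. For HGF in 16HBE-ex14, 1 was called (PKP1, plakophilin 1 of desmosomes, 0.66), against 2.11%. By adjusted p alone, 4 of the 20 were higher and 1 lower in 16HBE-ex14 without HGF, against 18.2% of all genes in either direction, and 3 were higher and 1 lower with HGF, against 20.6%. Of 21 tested transcription and splicing factors of simple and surface epithelium, 1 was called higher and 3 lower without HGF, against 9.25% of all genes. With HGF, 1 was called higher and 4 lower, against 10.7%. FOXA2, a factor of endoderm-derived epithelium, was well above background on 4 of 4 untreated 16HBE-ex14 arrays and on no untreated 16HBE-WT array, and was at least 17.4-fold higher. The factors called lower there were CEBPA (-0.84), GRHL3 (-0.67) and EHF, whose probe was well above background on 4 of 4 untreated 16HBE-WT arrays but on 2 of 4 untreated 16HBE-ex14 arrays. With HGF, ELF3 (-1.72), CEBPA (-1.10), GRHL3 (-0.85) and GRHL1 (-0.80) were called lower. For HGF in 16HBE-ex14, ELF3, an epithelial ETS factor, fell by 1.48 on the log2 scale and EHF was called higher, with the same limit on its untreated arrays.

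Of 8 airway basal markers tested, 3 were called lower without HGF, namely the keratins KRT5, KRT14 and KRT17 given above, against 9.25% of all genes. The summed linear level of the list, made up mostly of ITGA6 and DLK2 (mean log2 level 4.24 each in untreated 16HBE-WT), was 49.5 to 56.9 in 16HBE-WT and 43.1 to 46.4 in 16HBE-ex14. With HGF the same 3 keratins were called lower (KRT5 by -4.26) and KRT15 higher (0.71), against 10.7% of all genes, while the sums were 49.4 to 55.8 and 47.5 to 53.7. Their part in the differences of KRT19, KRT81 and KRT80 was not tested. Among 3 fibroblast markers LUM was called lower without HGF, against 9.25% of all genes. Its probe was well above background on 4 of 4 16HBE-WT arrays and on no 16HBE-ex14 array. The summed level of the 3 tested was 0.506 to 0.969 in 16HBE-WT and 0.284 to 0.474 in 16HBE-ex14. Of 9 squamous markers tested, 3 were called higher and 3 lower without HGF, against 9.25% of all genes. With HGF in both genotypes, 2 were called higher and 2 lower, against 10.7%. Among 3 tested leukocyte markers, CD3E was called lower without HGF (-0.98), against 9.25% of all genes. The sum over the 9 epithelial markers was 334 to 377 in 16HBE-WT and 356 to 418 in 16HBE-ex14. Of these 9, 0 were called without HGF, against 9.25% of all genes. With HGF in both genotypes 1 was called lower (ELF3, -1.72), against 10.7%. For HGF in 16HBE-ex14, 2 were called lower (CLDN1, -0.71, and ELF3, -1.48), against 2.11%.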

How the data were processed

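Labelled cRNA made from total RNA was hybridised to one-colour 60-mer arrays, which the authors scanned. The deposited intensity values came from Agilent Feature Extraction 10.7.3.1, per the labels, with a fitted spatial background subtracted and no scaling between arrays. Here log2 intensity was centred on each array's 75th percentile over non-control spots, outlier spots were dropped and spots of a probe were averaged. Groups came from the labels. Probes marked well above background on 4 or more of 16 arrays were fitted with limma 3.58.1 in R 4.3.3 (1 mean per group, all 16 arrays), with Benjamini-Hochberg adjustment within each of 5 comparisons over all tested probes. The procedure was tested on simulated data with changes added to 16HBE-ex14+HGF only, and was scored only for the responses to HGF. The comparisons between genotypes were not scored there. The simulated noise was independent between arrays and held no scale difference between genotypes. The number of arrays limits the precision. The replicates were separated by a week of culture according to the study's methods, but the labels do not say which array is which week. Replicate numbers follow the accession order and coincide with slide and array row. All members are named, and from other lists only called genes, at most 5 per list and comparison by size; KRT83, KRT86 and LUM were chosen after their values were seen. The members and lists were chosen with earlier results of these data known. Alternatives covered background, scaling, filters, blocks, priors, weights and left-out arrays.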

Additional observations from a re-analysis of the deposited data

Results flagged for a closer look

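A single array stood apart from the other 3 of its group for 2 member probes, by Dixon's ratio of the gap to the range. The ratio was above the critical value for 4 arrays, which chance passes in about 1 of 20 groups. Each of the 14 member probes was examined in each of the 4 groups, so at that rate chance alone would flag some. For the KRT8 probe of the non-coding transcript, the highest 16HBE-WT+HGF array was 3.41, against 3.12 for the next (ratio 0.897). For KRT4, the lowest 16HBE-ex14+HGF array was -3.97, against -3.33 for the next (ratio 0.841). Under the reported processing neither probe passed the test in a comparison with that group, and KRT4 passed with normexp in the comparison of the genotypes with HGF (adjusted p = 0.0320).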

How the results depend on the processing

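Over 37 alternatives, 1432 of 1472 values of single members kept their side of the adjusted p limit. Member genes called without HGF numbered 1 in place of 0 with normexp, quantile, array median, array weights, spike-in scaling, no scaling, and quantile with a slide block, 3 with no fold limit, and 0 to 1 when an array was left out. With HGF they numbered 2 with no fold limit and 3 with no scaling. By adjusted p alone, 3 without HGF became 0 on either slide alone and 4 with spike-in scaling (KRT8 added) or no scaling (KRT80, KRT8, KRT18 and KRT7). The 2 with HGF became 5 with normexp, 1 with the array median, 0 on either slide alone, 4 with no scaling and with quantile plus slide block, 3 (KRT8 added) with slide or replicate block, trended robust prior or array weights, and 2 to 3 when an array was left out. KRT18 changed from -0.01 to 0.36 without HGF and from -0.02 to 0.36 with HGF when arrays were not scaled, and to 0.20 with quantile plus slide block. Spike-in scaling, no scaling and quantile plus slide block were chosen after seeing the data. Among the 1432 values that kept their side, 119 changed sign while not passing. The median over all tested probes moved from -0.02 to 0.35 without HGF and from 0.00 to 0.38 with HGF when arrays were not scaled, and to 0.12 and 0.09 with the array median. With the replicate block, 3 members thus passed with HGF and no other member's call changed. Same-numbered arrays had correlated deviations of 0.028 to 0.323, with 20 of 24 pairs over 0.1. The numbers were not taken as pairs, because the labels tie none to a week and not every pair exceeded 0.1. The causes were not tested, except that a slide alone has 2 arrays per group. KRT4 and KRT13 lie near the lowest level well above background (median -4.40), which limits what can be seen of them.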
